A study of Mus musculus with 6 samples.

Results

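Prnp encodes the cellular prion protein, a glycoprotein that a glycosylphosphatidylinositol (GPI) anchor holds on the surface of neurons and glia and whose misfolded form propagates in prion disease. Mice have 2 further genes of this family. Prnd encodes doppel, which resembles the folded end of the prion protein, is abundant in testis and is known in brain from endothelium, and Sprn encodes Shadoo, a neuronal protein that shares the hydrophobic stretch of the prion protein. Both relatives are also GPI-anchored. Prnp and Prnd lie beside each other on chromosome 2, where transcripts that read through from one into the other are annotated as the prion gene complex Prn, and Sprn lies on chromosome 7.

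These genes were examined in RNA from a dissection of brainstem and cerebellum, taken at 16 weeks of age from 3 mouse samples labelled MSA Transgenic and 3 labelled wild type. The labels give both genotypes the same mixed strain, C57BL/6, 129 and C3H. They name neither the transgene nor its promoter, and do not say whether the samples are separate animals, so that any p-value measures the spread between these samples. Each sample was hybridised to its own single-colour Agilent array, whose 60-base probes bind labelled RNA and whose brightness is given in intensity units. The members are the non-control probes whose gene name in the files is Prnp, Prnd or Sprn, which are 4 of 56605 probes and stand for 3 of the 37074 gene names on the array. The genes were chosen after an earlier analysis of these same arrays, in which Prnp had the smallest adjusted p between the genotypes. Its values and those of its relatives are therefore given as a description, without a test.

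Wild-type replicate 1 was hybridised on slide 1 and the other 5 arrays on slide 2. Its 75th percentile of signal was 406 intensity units, against 535 to 609 on the others, and its correlation with them across probes was 0.974 to 0.978. No pixel of a non-control spot was saturated on any array. Of 10 marker genes of brainstem and cerebellum, such as Gabra6 of granule cells and Pcp2 of Purkinje cells, 9 were well above background on all 6 arrays. Hoxb8, which marks the most caudal end of the hindbrain and the spinal cord, was so on 5.

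The prion gene probes are shown because what each one reads decides how its values are to be understood. Each line gives the first 30 of the 60 bases from the 5′ end in lower case, with no part singled out by capitals. Positions are on mm9, the build named in the file headers.
Prnp distal probe, chr2:131763817-131763876, plus strand: ttgctttttaccccagcagacataaactgc
Prnp proximal probe, chr2:131744903-131744962, plus strand: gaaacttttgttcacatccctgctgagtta
Prnd probe, chr2:131781755-131781814, plus strand: tgaagtattccacagtacagatgtgctgca
Sprn probe, chr7:147336973-147337032, minus strand: tggctagactgtgagccccttccagtgatc

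The distal Prnp probe is annotated in the files to 2 RefSeq transcripts of Prnp and begins at base 1835 of transcript variant 1. The proximal probe lies 18914 bases before it in the direction of transcription and is annotated to 1 RefSeq transcript of Prnp, variant 2, beginning at its base 1313. The Prnd probe lies 17938 bases beyond the distal Prnp probe. It is annotated to 2 RefSeq transcripts of Prnd and 2 of the read-through gene Prn, so it cannot tell them apart. The Sprn probe is annotated to 1 RefSeq transcript. None of the 4 probes shared a run of 20 bases, on either strand, with any other probe of the array. G and C made up 43.3% of the distal Prnp probe, 35.0% of the proximal one, 40.0% of the Prnd probe and 53.3% of the Sprn probe.

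The distal Prnp probe was far brighter in the transgenic samples. Its deposited signal was 194228, 204867 and 201181 intensity units in transgenic replicates 1, 2 and 3, against 22838, 32098 and 29592 in wild-type replicates 1, 2 and 3. The 2 groups did not overlap, and the dimmest transgenic spot was above the brightest wild-type one. For comparison between arrays each signal was divided by its array's 75th percentile and taken as log2. On that scale the level was 8.38 ± 0.06 in transgenic and 5.81 ± 0.02 in wild-type samples (SD, n = 3 each). The log2 difference was 2.56 ± 0.08 (SE), a 5.92-fold higher level. A log2 difference of at least 1 was found in 1.07% of the 38463 probes tested across the array, and groups apart with the transgenic samples higher in 6.68%. Nothing is read from these shares for Prnp, which was chosen on the same contrast. After scaling, wild-type replicate 1 at 5.82 lay between replicates 2 and 3 of its group at 5.83 and 5.79. The scanner software's own error was 10.0% of the signal on every array. The brightest spot reached a raw mean signal of 474525 to 488576 on the transgenic arrays, while the distal Prnp spots there had 193268 to 203328, below the upper end of the range recorded.

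The proximal Prnp probe differed in the opposite direction. Its deposited signal was 768, 692 and 829 intensity units in the transgenic samples, against 632, 915 and 882 in the wild-type samples. Before scaling the groups overlapped, with wild-type replicate 1 on the dimmer array the lowest of all. After scaling its level was 0.33, 0.23 and 0.46 in transgenic replicates 1, 2 and 3, against 0.64, 0.70 and 0.72 in wild-type replicates 1, 2 and 3. The groups were then apart, with every transgenic value under every wild-type value. The mean was 0.34 ± 0.12 in transgenic and 0.69 ± 0.04 in wild-type samples (SD, n = 3 each), a log2 difference of -0.35 ± 0.10 (SE), or 1.27-fold lower. Groups apart with the transgenic samples lower were found in 7.26% of the tested probes, groups apart in either direction in 13.9%, and a log2 difference of at most -1 in 0.276%.

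**Figure D1:**
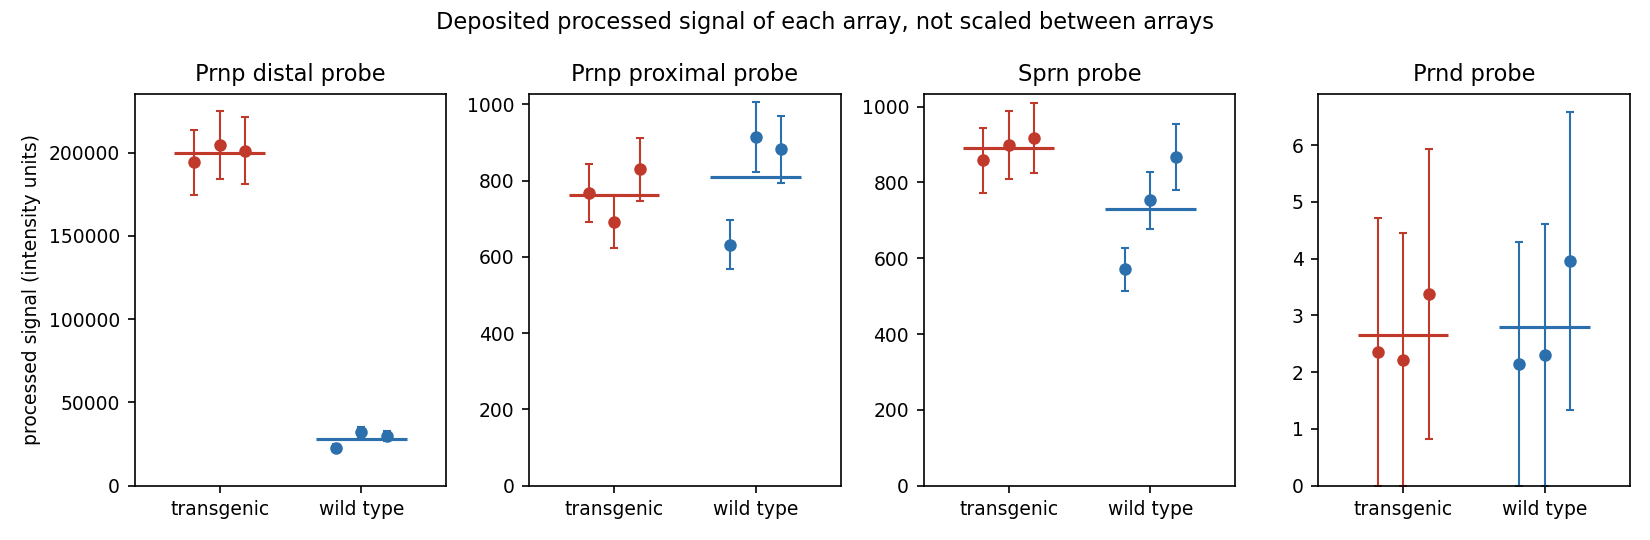
Deposited processed signal in intensity units (linear axis from 0, a separate scale for each panel) of the distal Prnp, proximal Prnp, Sprn and Prnd probes, with transgenic samples in red on the left and wild-type samples in blue on the right. Points are arrays in the order of replicates 1 to 3, bars are the scanner software's error of each spot (drawn down to 0 where larger than the signal) and horizontal lines are group means. The distal Prnp probe stands at 194228 to 204867 in transgenic and 22838 to 32098 in wild-type samples, while the signals of the other 3 probes overlap between the genotypes before scaling.

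After scaling, the 2 Prnp probes differed in opposite directions, and transgenic and wild-type arrays stood apart in the distance between them. That separation carries the distal difference of 2.56, on which Prnp was chosen, so it is no separate result. The proximal difference of -0.35 ranked 5846 by size among 38463 tested probes, where the SD of the log2 differences was 0.30. The log2 level of the distal probe minus that of the proximal probe was 7.98, 8.21 and 7.92 on the transgenic arrays, against 5.18, 5.13 and 5.07 on the wild-type arrays. A ratio of this kind needs no scaling between arrays. Its mean was 8.04 ± 0.15 in transgenic and 5.13 ± 0.05 in wild-type samples (SD, n = 3 each), a gap of 2.91 between the genotypes. Transgenic replicate 2 had the highest distal and the lowest proximal level of its group. Since probes differ in how well they bind, the size of this number on 1 array is no ratio of transcripts, and only its change between genotypes can be read. Which transcripts lie behind that change was not tested, since the distal probe reads both annotated Prnp transcripts and the labels do not give the sequence of the transgene.

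Sprn, the gene of Shadoo, was at nearly the same level in both genotypes. Its deposited signal was 858, 899 and 918 intensity units in the transgenic samples, against 571, 753 and 867 in the wild-type samples. After scaling, the level was 0.49, 0.60 and 0.60 in transgenic replicates 1, 2 and 3, against 0.49, 0.42 and 0.70 in wild-type replicates 1, 2 and 3. The transgenic values lay inside the range of the wild-type ones. The log2 difference was 0.03 ± 0.11 (SE, n = 3 each), smaller than the SD of 0.14 among the wild-type samples. It turned to -0.01 with median scaling and to -0.03 without wild-type replicate 2, so no direction can be given.

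The Prnd probe, which reads the gene of doppel, was not well above background on any array. Its signal was 2.35, 2.22 and 3.37 intensity units in the transgenic samples, against 2.14, 2.30 and 3.96 in the wild-type samples. For replicates 1 and 2 of both genotypes the scanner software flagged the value as a surrogate, put in place of a measured signal. The values of the 2 genotypes overlap, and the scanner error of each spot was at least 66.3% of its signal. No fold is therefore given for this probe. All 10 endothelial markers examined, among them Pecam1 and Cldn5, were well above background on all 6 arrays. Of 6 markers of male germ cells, the other cells in which Prnd is known, 1 was well above background on all 6 arrays and 2 on none.

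A probe named for the gene complex Prn, which by its name is no member, is annotated to 3 transcripts of Prnd and 1 of Prn. It lies at chr2:131779232-131779291, between the distal Prnp probe and the Prnd probe. Its signal was 34.5, 46.2 and 35.8 intensity units in the transgenic samples, against 8.89, 31.8 and 30.5 in the wild-type samples. Wild-type replicate 1, the array of slide 1, stood apart as the only one on which this probe was not well above background. The log2 difference was 0.63 ± 0.40 (SE, limma adjusted p = 0.843) over all arrays and 0.17 ± 0.16 within slide 2, so the value over all arrays rests on wild-type replicate 1.

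Because the strain is mixed, genes beside the members were compared between the genotypes with limma, adjusted by the Benjamini-Hochberg method over all 38463 tested probes. Tested probes stood well above background on each of the 3 arrays of one genotype or of both, and a probe was called when its adjusted p was under 0.05. Over the whole array 11 probes were called, 0.0286% of those tested, with 10 of them higher (0.026%) and 1 lower (0.0026%) in the transgenic samples. An unadjusted p under 0.05 in limma was found for 2150 of the 38463 tested probes. Within 500 kb of the Prnp and Prnd probes 23 other probes of 16 genes were tested. None was called by limma, none had an unadjusted p under 0.05, and their lowest adjusted p was 0.843. Their median log2 difference was -0.02, and they ran between -0.64 and 0.63. The 0.63 is that of the Prn probe, which was tested only through the transgenic group.

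On the side of higher coordinates the nearest named genes were Rassf2, a Ras association domain protein, Slc23a2, a vitamin C transporter, and Tmem230, a membrane protein of endosomes. Their log2 differences were 0.01 ± 0.10 for Rassf2, 0.14 ± 0.10 for Slc23a2 and 0.01 ± 0.10 for Tmem230 (SE, n = 3 each). The nearest tested probe of each gene was taken. On the other side came Erv3, an endogenous retroviral sequence, with -0.64 ± 0.44, Adra1d, an alpha-1 adrenergic receptor, with 0.05 ± 0.27, and Smox, a spermine oxidase, with -0.09 ± 0.09. Other tested probes differed in sign from these for Erv3 (0.05 ± 0.19), for Adra1d (-0.09 ± 0.24) and for Slc23a2 (-0.34 ± 0.32 and -0.13 ± 0.19). The Slc23a2 probe at -0.34 was well above background on 2 transgenic and 3 wild-type arrays, so it was tested only through the wild-type group. Without the array of slide 1, that is within slide 2, the nearest Erv3 probe had -0.30 ± 0.42 and the nearest Adra1d probe 0.36 ± 0.09 (SE, 3 transgenic and 2 wild-type samples). The Adra1d value thus depended on the array of slide 1. These values were all smaller in size than the 2.56 of the distal Prnp probe. Since Prnp was chosen on this same contrast, that gap is no separate result.

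**Figure D2:**
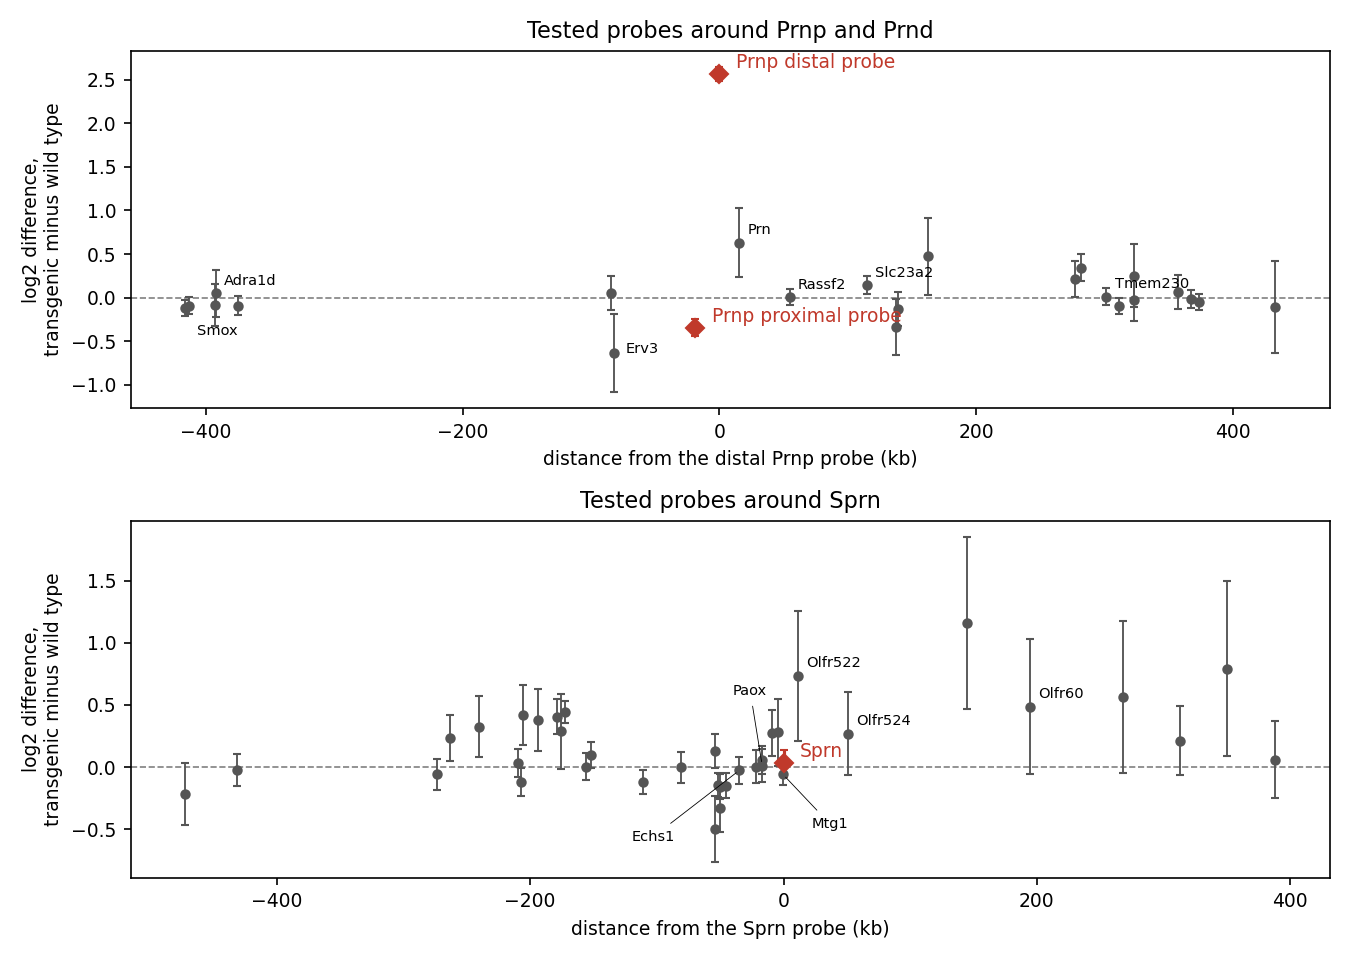
Log2 difference of transgenic minus wild-type samples (bars are SE, n = 3 each) for tested probes within 500 kb of the Prnp and Prnd probes (upper panel, distance in kb from the distal Prnp probe) and of the Sprn probe (lower panel, distance in kb from it). The members are red diamonds and other probes grey points, with the nearest named genes labelled. In the upper panel the distal Prnp probe, whose gene was chosen on this contrast, is at 2.56, and the grey points lie between -0.64 and 0.63.

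Around Sprn 37 other probes of 26 genes were tested within 500 kb. None was called by limma, 2 had an unadjusted p under 0.05, and the lowest adjusted p was 0.348. Their log2 differences ran between -0.50 and 1.16, with a median of 0.06. The 2 were probes of Spef1l, with 0.41 ± 0.14 (SE), and of Adam8, with 0.45 ± 0.09, both named here after their values were seen. Mtg1, which encodes a GTPase of mitochondrial ribosome assembly, is read by a probe at -0.562 kb from the Sprn probe. It had a log2 difference of -0.06 ± 0.09 (SE), while 2 farther Mtg1 probes had 0.27 ± 0.18 and 0.28 ± 0.27. Paox, a polyamine oxidase, had 0.01 ± 0.13 and Echs1, an enzyme of mitochondrial fatty acid oxidation, -0.03 ± 0.11. On the side of higher coordinates lay the olfactory receptor genes Olfr522, Olfr524 and Olfr60 with 0.74 ± 0.52, 0.27 ± 0.33 and 0.49 ± 0.54. Within slide 2 these 3 had 0.17, -0.10 and -0.17. Olfr522 was well above background on 3 transgenic arrays and 1 wild-type array, and Olfr524 on 3 and 2. The probe at 1.16, of a predicted gene, was so on 3 and 2 as well. These probes were tested only through the transgenic group, which favours positive differences, and nothing is read from them.

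Genes that act with the prion protein were next compared from lists chosen with earlier results on Prnp known. Of 21 partners, receptors and proteases of the prion protein, 20 were tested and 0 were called by limma, with 1 at an unadjusted p under 0.05. Their median log2 difference was -0.02, beside -0.00049 over all 24932 tested genes. Over the whole array 0.0286% of tested probes were called, and 2150 of 38463 had an unadjusted p under 0.05 in limma. The counts of this list and of those that follow are to be read beside these shares. With so few calls on the array, the absence of a call in a short list is no result about its genes. Adam8, a membrane protease reported to cleave the prion protein and known from leukocytes, is read by the same probe as in the neighbourhood of Sprn and had 0.45 ± 0.09 (SE, limma adjusted p = 0.348). Kcnd2, a potassium channel subunit, had -0.36 ± 0.18, Adgrg6, a receptor for a fragment of the prion protein on Schwann cells, -0.26 ± 0.13 and Vtn, the matrix protein vitronectin, 0.16 ± 0.10.

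The enzymes that build the GPI anchor carried by all 3 family members showed no call either, where 0.0286% of all tested probes were called. Of 29 genes, 28 were tested, 0 were called by limma and 2 had an unadjusted p under 0.05, with a median log2 difference of -0.04. Pign, a mannose-modifying ethanolamine phosphate transferase of this pathway, had -0.58 ± 0.13 (SE, limma adjusted p = 0.488) and Pigz, a mannosyltransferase, -0.37 ± 0.11 (0.724). Pigt and Pigk, subunits of the transamidase that attaches the anchor, had 0.29 ± 0.13 and -0.23 ± 0.11.

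The prion protein binds copper. Of 20 genes of copper handling, 19 were tested and 0 were called by limma, beside 0.0286% of all tested probes. None of the 19 had an unadjusted p under 0.05. Their median log2 difference was 0.01. Steap3, a metalloreductase, had 0.26 ± 0.11 (SE, n = 3 each), Cox11 and Sco2, which deliver copper to cytochrome oxidase, -0.24 ± 0.11 and -0.16 ± 0.11, and the superoxide dismutase gene Sod1 -0.11 ± 0.08.

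Of 8 genes reported to modify prion disease in mice or humans, 7 were tested and 0 were called by limma. The share called over all tested probes was 0.0286%. All 7 differences were negative, between -0.29 and -0.07. Their median was -0.11, beside -0.00049 over all tested genes. Gal3st1, which makes the myelin lipid sulfatide, had -0.29 ± 0.09 (SE, limma adjusted p = 0.809, the 1 gene of this list with an unadjusted p under 0.05). The ubiquitin ligase gene Hectd2 had -0.20 ± 0.10, Stmn2, a neuronal regulator of microtubules, -0.16 ± 0.08 and the syntaxin gene Stx6 -0.11 ± 0.09. Stmn2 is also on the list of neuronal markers below, whose differences were mostly negative too. The part of cell types in the values of this list was not tested. Of 8 transcription factors reported to act on Prnp, all were tested and 0 were called by limma, with 0 at an unadjusted p under 0.05 and a median of -0.02. Atf6, a sensor of protein folding in the endoplasmic reticulum, had -0.22 ± 0.12, Sp1, a factor that binds GC-rich promoters, -0.18 ± 0.10, Yy1 0.20 ± 0.12 and the metal-responsive factor Mtf1, also on the copper list, -0.11 ± 0.12.

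**Figure D3:**
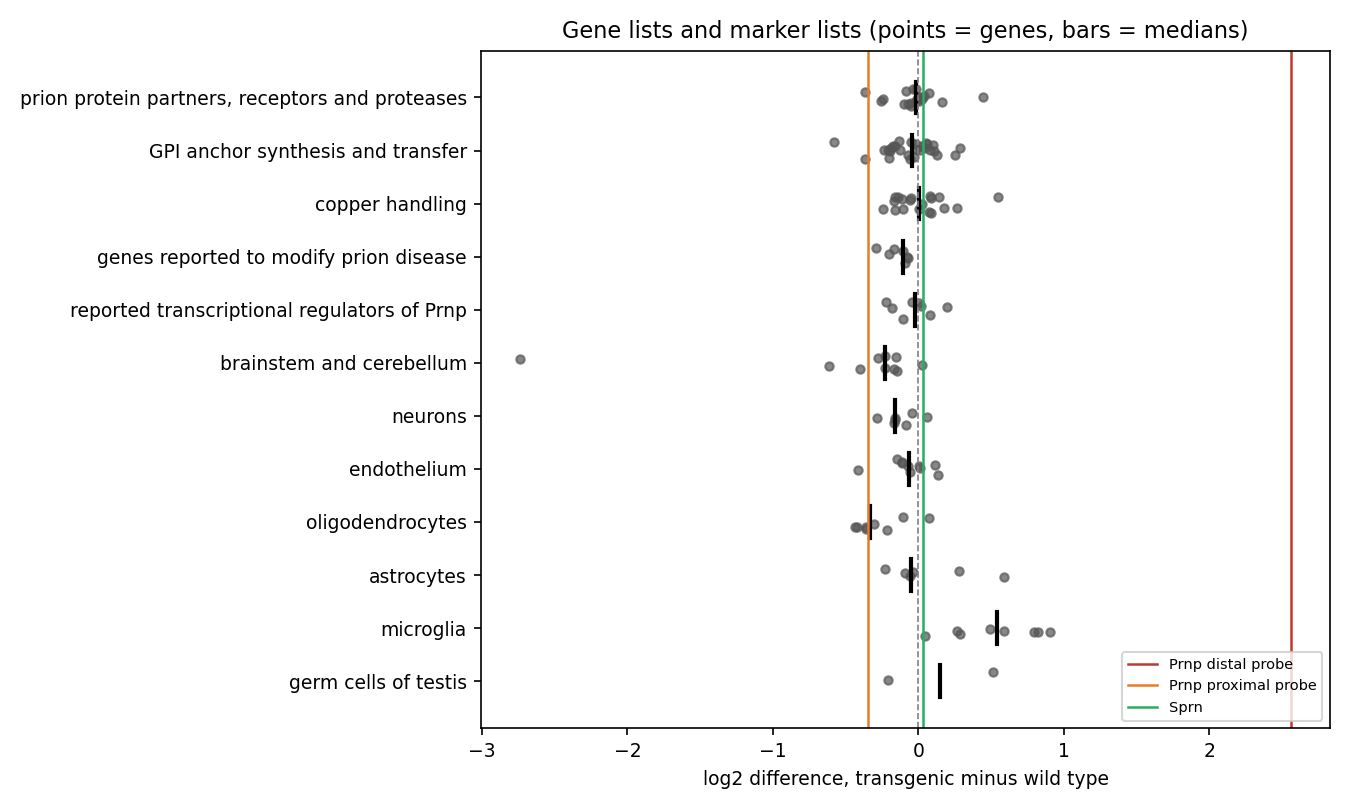
Log2 difference of transgenic minus wild-type samples for each tested gene of the 5 gene lists and of the cell type marker lists (points, spread vertically only for legibility), with the median of each list as a black bar. Coloured vertical lines mark the distal Prnp probe at 2.56, the proximal Prnp probe at -0.35 and Sprn at 0.03. The points of the 5 lists lie between -0.58 and 0.55.

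The summed levels of oligodendrocyte, neuronal and microglial markers, and of the tissue's own regional markers, also stood apart by genotype, although no single marker was called by limma. In a tissue extract, fewer cells of a type and less RNA per cell cannot be told apart. For 8 oligodendrocyte markers, 7 differences were negative with a median of -0.33, and their summed level was 293 to 321 times the array's 75th percentile in transgenic and 354 to 424 times in wild-type samples. Mog, which encodes a glycoprotein on the outer surface of myelin, had -0.42 ± 0.09 (SE). For 7 neuronal markers, 6 were negative with a median of -0.16, and the sum was 372 to 378 in transgenic and 402 to 436 in wild-type samples. Snap25 and Stmn2 had -0.28 ± 0.09 and -0.16 ± 0.08. The direction in both lists is that of the proximal Prnp probe, and their part in its lower level was not tested.

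The 10 markers of brainstem and cerebellum summed to 399 to 427 in transgenic and 461 to 493 in wild-type samples, with 9 negative differences and a median of -0.23. Hoxb8, the caudal marker, had -2.74 ± 1.55 (SE), the most negative of this list. The part of such a regional difference in the values of the prion gene probes was not tested.

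Microglial markers lay in the direction of the distal probe. All 8 differences were positive, but they ran unevenly from 0.05 to 0.90, with a median of 0.54. The summed level was 27.8 to 31.9 in transgenic and at most 20.1 in wild-type samples. C1qc and C1qb, chains of complement C1q, had 0.90 ± 0.12 and 0.80 ± 0.11 (SE), against 2.56 for the distal Prnp probe. The sums of 6 astrocyte markers overlapped, at 58.5 to 59.4 in transgenic and 55.7 to 63.0 in wild-type samples, although Gfap among them had 0.59 ± 0.11. Those of 10 endothelial markers overlapped as well, at 41.0 to 46.3 in transgenic and 44.9 to 48.6 in wild-type samples. The lowest adjusted p of any marker was 0.144, for C1qc. The part of microglia in the level of the distal probe was not tested.

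The genes whose profiles over the 6 arrays were most like each Prnp probe were sought among 7023 tested probes of other genes whose log2 levels spanned at least 1, with predicted genes left out. Correlations over 6 arrays in 2 separated groups mainly follow the genotype and are given as a description. For the distal probe they were the chemokine gene Ccl3 (Pearson r = 0.997), the phagocyte lysosome gene Cd68 (0.996), the chemokine gene Ccl6 (0.994), Cabp2, a calcium-binding protein gene (0.993), and Rasal3, a Ras GTPase-activating protein gene of blood cells (0.992). Their log2 differences ran between 1.24 for Rasal3 and 3.54 for Ccl3, with 1.41 for Cd68 and 2.70 for Cabp2. Transgenic replicate 3 was the highest of its group for Ccl3, Cd68, Cabp2 and Rasal3, whereas for Ccl6, as for the distal Prnp probe, it was replicate 2.

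For the proximal probe they were Pdlim2, a cytoskeletal adaptor gene (Pearson r = 0.984), the cytokine gene Il33 (0.961), Serpind1, which encodes heparin cofactor II (0.957), Grb14, an adaptor of the insulin receptor (0.956), and Nipal4 (0.948). Their log2 differences were -0.79 for Pdlim2, -1.23 for Il33, -1.36 for Serpind1, -0.85 for Grb14 and -0.91 for Nipal4. Transgenic replicate 2 was the lowest of its group for Pdlim2, Il33, Grb14 and Nipal4, as for the proximal probe, and for Serpind1 it was replicate 1.

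**Figure D4:**
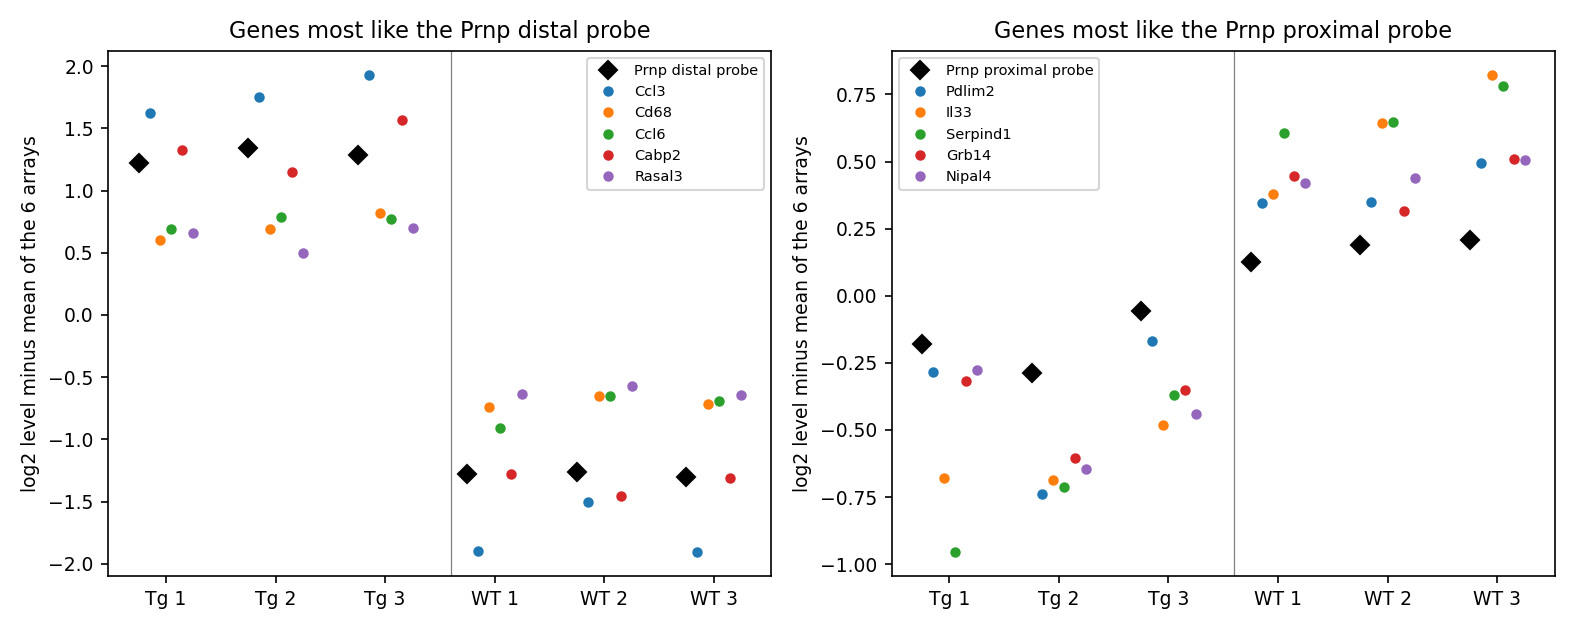
Log2 level minus the mean of the 6 arrays for the distal Prnp probe (left panel) and the proximal Prnp probe (right panel), as black diamonds, with the 5 genes of highest Pearson correlation to each as coloured points. Transgenic arrays (Tg) are left of the grey line and wild-type arrays (WT) right of it. The distal probe and its 5 genes are above their mean on all transgenic arrays, and the proximal probe and its 5 genes are below theirs on all transgenic arrays.

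The values of the 3 probes above background were recomputed under other processing, and leaving the arrays unscaled moved each of them. Over 13 alternatives the log2 difference of the distal Prnp probe lay between 2.51 and 2.84 and was always positive, and that of the proximal probe lay between -0.41 and -0.070 and was always negative. The gap between them lay between 2.83 and 2.97. Sprn lay between -0.03 and 0.31 and changed sign. The values of 2.84 and -0.070 came from leaving the arrays unscaled, where the median of all tested probes was itself shifted by 0.27. Relative to that median the distal probe stood at 2.57, the proximal probe at -0.34 and Sprn at 0.04.

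**Figure D5:**
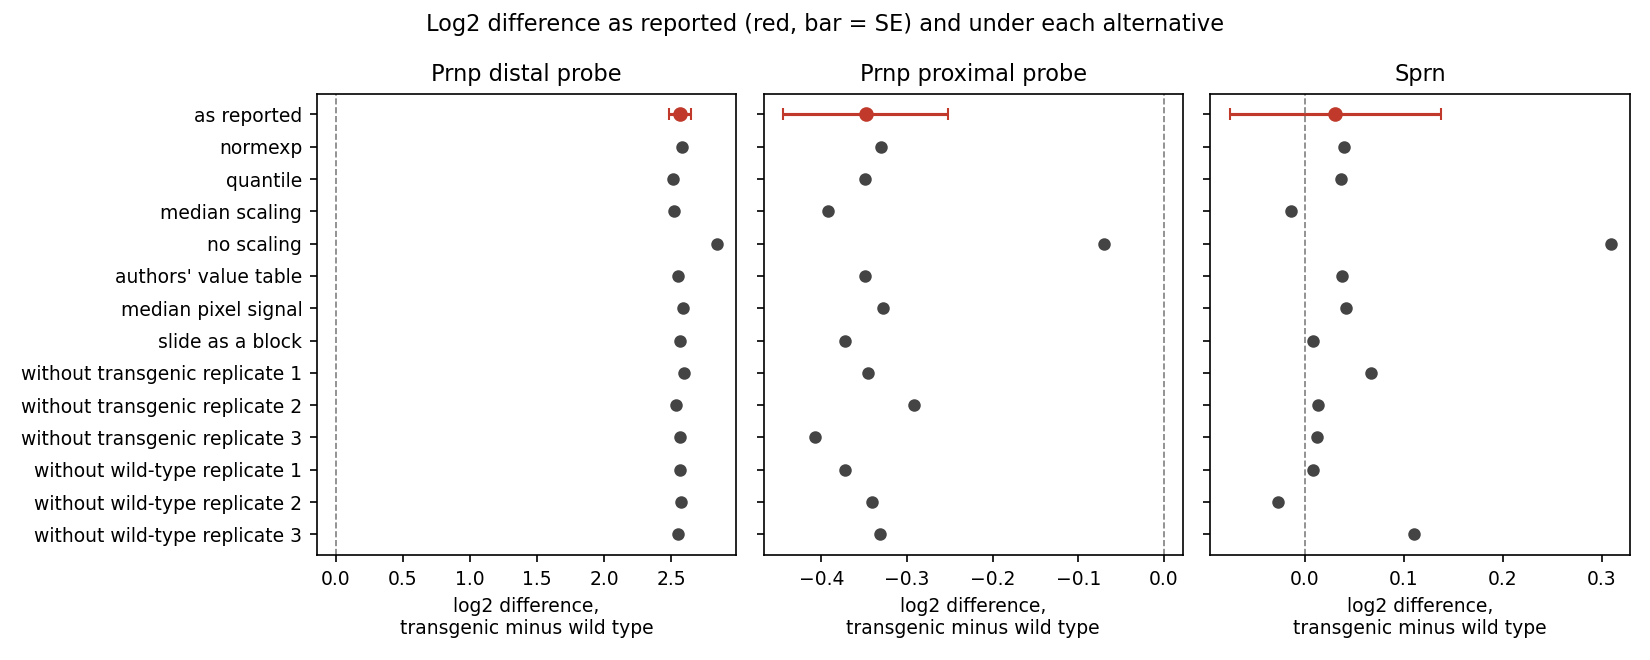
Log2 difference of transgenic minus wild-type samples for the distal Prnp probe, the proximal Prnp probe and Sprn, each panel with its own axis, as reported (red, bar is SE) and under each of 13 alternatives (grey). Without scaling all 3 values lie farther to the right, at 2.84, -0.070 and 0.31.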

How the data were processed

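Per the file headers, arrays were read with Agilent Feature Extraction 10.7.1.1 on mm9 (9.5.1.1 per the submitters' processing notes). The deposited intensity values are linear, with background already subtracted by that software, and carry a flag per spot for signal well above background. The authors' value table, also of intensity and with a median of 59.9 in each column, served only as an alternative; how it was scaled is not given in the sources used here. Here control spots were dropped, as were the 39 to 84 spots of each array flagged as outliers, log2 was taken, spots of a probe were averaged and each array's 75th percentile was subtracted. Of 56605 probes, 32994 were named by accession, 10224 by symbol and 520 by synonym through a RefSeq gene table, used for names only. Each probe was kept apart, and for lists the probe with the highest mean per gene was taken. Limma 3.58.1 (R 4.3.3, lmFit and eBayes, 2-sided) compared the genotypes, and its steps were tested on simulated data. Members and lists were chosen with earlier results of these data known. Named are all members, up to 4 genes per list and 2 per marker list by smallest p, up to 3 nearest genes per side, and 5 genes most like each Prnp probe. One gene named by this rule is not reported here. The number of arrays limits the precision.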

Additional observations from a re-analysis of the deposited data

How the results depend on the processing

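The distal Prnp probe kept a positive log2 difference and the proximal probe a negative one under all 13 alternatives. Among these, slide as a block gave the same values as leaving out wild-type replicate 1, which is alone on its slide. The distal value of 2.56 became 2.51 with quantile normalization, and without scaling it became 2.84, while the log2 difference of the proximal probe was -0.070 and that of Sprn 0.31. Leaving out 1 sample gave 2.54 to 2.59 for the distal probe, -0.41 to -0.29 for the proximal probe and -0.03 to 0.11 for Sprn, which was also negative with median scaling. No gene beside the members and no gene of the 5 lists was called in any alternative run for them. Where calls were counted on the whole array they numbered 0 to 45, so this absence gives no information about those genes. The number of called probes, 11, became 37 with normexp, 24 with median scaling, 34 with an intensity trend, 23 when signal above background was required on every array, 4 with no filter, where more probes were tested, and 45 at an adjusted p under 0.1. With 1 probe per gene it was 13 from the same fit with p-values readjusted, and 11 with the model refitted, which was added after the 13 had been seen. Leaving out 1 sample gave 0 to 10 calls in limma. The 0 was reached without transgenic replicate 1, transgenic replicate 2 or wild-type replicate 3, where 1559, 1795 and 2043 probes had an unadjusted p under 0.05, and the count was 5 without transgenic replicate 3, 4 with wild-type replicate 2 left out and 10 with replicate 1 of that genotype left out. Other causes were not tested. No paired analysis was run. The numbers in the sample titles differ for every sample and run in adjacent transgenic and wild-type pairs. No label says whether adjacent numbers share a litter or a day. The Prnd probe is limited by its signal, which was not well above background on any array.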
